A study of Mus musculus with 8 samples.

Results

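The 5 mature microRNAs (miRNAs) described here are the products of the miR-106b-25 cluster that were read on the array, mmu-miR-106b-5p, mmu-miR-106b-3p, mmu-miR-93-5p and mmu-miR-25-3p, and mmu-miR-20b-5p, a paralog from another chromosome. They were chosen by name from the 1881 mouse miRNAs on the array, with all their probes. Of these 5 members, 4 were detected on all 8 arrays and mmu-miR-106b-3p on 7. All 5 were among the 385 miRNAs tested. Footpad skin, the site at which mouse sweat glands form, was taken from Dicer conditional knockout (cKO) embryos and from wild-type (WT) embryos, all of the strain background C57BL6. The groups were cKO at stage E16.5 (counted in embryonic days), WT at E16.5, cKO at E17.5 and WT at E17.5, with 2 single-colour Agilent miRNA arrays in each group. The RNA of each array came from a pool of 3 to 5 embryos, so a p-value measures the spread between such pools. Dicer is the enzyme that cuts precursor hairpins into mature miRNAs. The labels do not give the Cre driver, the cells in which Dicer was deleted or the extent of the deletion, and Dicer mRNA was not measured on these arrays.

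The hairpins of miR-106b, miR-93 and miR-25 lie together inside the gene Mcm7, which encodes a subunit of the helicase that opens DNA for replication, and they are transcribed with it. The cluster is a paralog of the oncogenic miR-17-92 cluster, and miR-20b belongs to a further paralog, the miR-106a-363 cluster. miRNAs of these clusters are known to favour cell cycle progression and survival. miR-106b and miR-93 repress the cell cycle inhibitor Cdkn1a, and miR-25 represses the cell death gene Bcl2l11. A miRNA recognises its targets mainly through its seed, bases 2 to 8, so the members fall into groups by that stretch.

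All 5 members matched a mature sequence of RefSeq on the build GRCm38.p6. The mature sequences are shown because the members differ in their seed, which is in capitals.
miR-106b-5p: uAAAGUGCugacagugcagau
miR-93-5p: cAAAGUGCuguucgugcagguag
miR-20b-5p: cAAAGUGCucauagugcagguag
miR-25-3p: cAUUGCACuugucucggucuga
miR-106b-3p: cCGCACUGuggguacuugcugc
miR-106b-5p, miR-93-5p and miR-20b-5p share 1 seed. miR-17-5p and miR-20a-5p of the miR-17-92 cluster have that seed too.
miR-17-5p: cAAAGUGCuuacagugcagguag
miR-20a-5p: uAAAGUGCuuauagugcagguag
miR-25-3p shares its seed with miR-92a-3p of the miR-17-92 cluster.
miR-92a-3p: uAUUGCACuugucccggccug
miR-106b-3p, the other arm of the miR-106b hairpin, had a seed of its own among these miRNAs. Outside the seed the members with the same seed are also close. miR-93-5p and miR-20b-5p were identical at 20 of 23 bases, counted from the 5′ end, with the substitutions G10C, U11A and C13A. miR-20b-5p and miR-20a-5p were identical at 21 of 23 bases, with C1U and C10U. miR-25-3p and miR-93-5p were identical at 9 of 22 bases.

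The hairpins of the cluster are shown in the order of transcription because members that fell and members that were not called are cut from the same transcript. The mature members are in capitals.
Mir106b: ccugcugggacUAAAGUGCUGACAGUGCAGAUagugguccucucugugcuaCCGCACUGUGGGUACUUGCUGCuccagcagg
Mir93: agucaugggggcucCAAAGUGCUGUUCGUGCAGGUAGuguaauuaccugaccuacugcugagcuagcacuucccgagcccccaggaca
Mir25: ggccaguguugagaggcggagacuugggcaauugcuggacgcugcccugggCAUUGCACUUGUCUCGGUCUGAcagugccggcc
On GRCm38.p6 they lie on the minus strand at chr5:138165737-138165818 (Mir106b), chr5:138165523-138165610 (Mir93) and chr5:138165321-138165404 (Mir25), and together span 498 bases within Mcm7. Mir20b lies at chrX:52742113-52742192, also on the minus strand. The array files were annotated on mm9, so these RefSeq coordinates are not those of the files.

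The array reads a mature miRNA through DNA probes complementary to its 3′ end. The brightest probe of each member, which gave the values below, is shown because it sets which bases were read.
miR-106b-5p probe: atctgcactgtcagcac
miR-93-5p probe: ctacctgcacgaacag
miR-20b-5p probe: ctacctgcactatgagcact
miR-25-3p probe: tcagaccgagacaagtgc
miR-106b-3p probe: gcagcaagtacccac
They were complementary to bases 5 to 21 of miR-106b-5p, 8 to 23 of miR-93-5p, 4 to 23 of miR-20b-5p, 5 to 22 of miR-25-3p and 8 to 22 of miR-106b-3p. The miR-20b-5p probe has 1 mismatch among its 20 bases to miR-20a-5p and 2 to miR-17-5p, both of which were detected on all 8 arrays. The miR-106b-5p probe has 2 mismatches among 17 bases to miR-17-5p, and the miR-93-5p probe has 3 among 16 to miR-20a-5p. The miR-25-3p probe has 3 mismatches among 18 bases to miR-92a-3p and at least 11 to each of the other members and to miR-17-5p and miR-20a-5p. How much of a probe's signal came from a related miRNA was not tested.

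The 8 arrays lay on 1 slide, with replicate 1 of every group in row 2 and replicate 2 in row 1. Each group filled its own column, so slide column and group cannot be told apart. The number of miRNAs detected on an array ranged from 279 to 384, and the replicates of a group correlated at r = 0.997 to 0.999 over the 261 miRNAs detected on every array, which are not independent replicates. The 2 arrays with the fewest detected miRNAs were replicate 2 of cKO at E16.5 and replicate 2 of WT at E16.5. Markers of the epithelium, such as the miR-200 family, moved far more than the members. All 10 listed epithelial miRNAs were called lower over both stages, against 14.5% of all tested. Of the 10, 7 were detected on all 8 arrays. miR-183-5p was detected on 4, so it was tested only through groups where it was high, and its fall adds no support. The summed scaled intensity of the 10 was 4.08 to 4.31 in cKO, against 27.2 to 27.7 in WT at E16.5. At E17.5 it was 2.84 to 3.75 in cKO, against 29.0 to 32.1 in WT. Of 6 dermal mesenchyme markers 5 rose over both stages, and the 6 had a summed intensity of 59.9 to 65.2 in cKO and 45.3 to 52.1 in WT. The remaining marker, miR-143-3p, was called lower at E16.5 (log2 change −0.18) and higher at E17.5 (0.21). Under the same scaling the 4 skeletal muscle markers and both endothelial markers also rose, as did 3 of 5 blood markers and 1 of 4 nerve markers, of which miR-124-3p and miR-9-5p were detected on no array. Of all tested miRNAs 46% were called higher over both stages. Only 2 of the 4 nerve markers were tested, so the count to set beside that share is 1 of 2. This and the 3 of 5 for blood are near that share. The part of these shifts in the members' changes was not tested, and in bulk skin fewer cells of a type and less RNA per cell cannot be told apart.

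The comparison of cKO with WT addressed which miRNAs of the footpad were altered by the loss of Dicer. The 3 members with the shared seed fell about 1.5-fold at both stages, whereas no change of miR-25-3p or miR-106b-3p passed the test. Intensities below are scaled so that the 474 probes detected on every array have their 75th percentile at 1, and a change is a difference of log2 values from limma with p adjusted over all 385 miRNAs by the Benjamini-Hochberg method, called at 0.05. Over both stages 3 of 5 members were called lower and 0 higher. Among all 385 miRNAs tested 14.5% were called lower and the median change was 0.17, with 177 miRNAs called higher and 56 lower under this scaling.

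miR-106b-5p, encoded first in the cluster, had scaled intensities of 0.814 and 0.817 in cKO and 1.38 and 1.21 in WT at E16.5. At E17.5 it had 0.780 and 0.822 in cKO and 1.21 and 1.19 in WT. All 4 cKO arrays were below all 4 WT arrays, with no overlap, and the 4 cKO arrays differed among themselves less than the WT arrays did. How many of all tested miRNAs separated in this way was not counted, for this or any miRNA below. Separation is thus not shown to be particular to the members. Over both stages 233 of all 385 were called in either direction. Over both stages the change was −0.62 ± 0.0461 (log2, SE, 4 arrays per genotype, limma adjusted p = 0.000323), or 1.54-fold lower. Within a slide row it was −0.76 and −0.57 at E16.5 and −0.63 and −0.54 at E17.5. The other probe, shorter by 1 base, gave −0.70.

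miR-93-5p, the next in the cluster, had scaled intensities of 0.756 and 0.730 in cKO and 1.32 and 1.16 in WT at E16.5. At E17.5 it had 0.745 and 0.731 in cKO and 1.09 and 1.06 in WT. The genotypes again did not overlap, and the WT arrays at E16.5 were the highest of the 8. The change over both stages was −0.64 ± 0.0444 (limma adjusted p = 0.00028), or 1.56-fold lower. It was −0.80 and −0.67 within the slide rows at E16.5 and −0.55 and −0.54 at E17.5, and the other probe gave −0.67.

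miR-20b-5p, from the X chromosome, had scaled intensities of 0.616 and 0.640 in cKO and 0.921 and 0.852 in WT at E16.5. At E17.5 it had 0.614 and 0.616 in cKO and 0.905 and 0.952 in WT. As for the other 2 miRNAs with this seed, the cKO arrays lay below the WT arrays without overlap. The change over both stages was −0.55 ± 0.0348 (limma adjusted p = 0.000219), or 1.46-fold lower. Within the slide rows it was −0.58 and −0.41 at E16.5 and −0.56 and −0.63 at E17.5, and the other probe gave −0.52. Ordered by change from the lowest, miR-93-5p, miR-106b-5p and miR-20b-5p were in places 20, 21 and 23 of 385. The other members, miR-25-3p and miR-106b-3p, were in places 64 and 67.

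miR-25-3p, the last of the cluster, had scaled intensities of 1.43 and 1.49 in cKO and 1.63 and 1.47 in WT at E16.5. At E17.5 it had 1.45 and 1.52 in cKO and 1.51 and 1.49 in WT. The genotypes overlapped at each stage. The change over both stages was −0.05 ± 0.0411 (limma adjusted p = 0.365), with a 95% confidence interval of −0.153 to 0.0573. It was −0.19 and 0.03 within the slide rows at E16.5 and −0.06 and 0.03 at E17.5, and the other probe gave −0.05. An interval that includes 0 does not show that miR-25-3p was equal in both genotypes, but a fall of the size seen for miR-106b-5p, miR-93-5p or miR-20b-5p lay outside it under this scaling. With the arrays scaled on control probes instead, miR-25-3p was called lower (−0.44, limma adjusted p = 0.000484), and so were all 5 members.

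**Figure D1:**
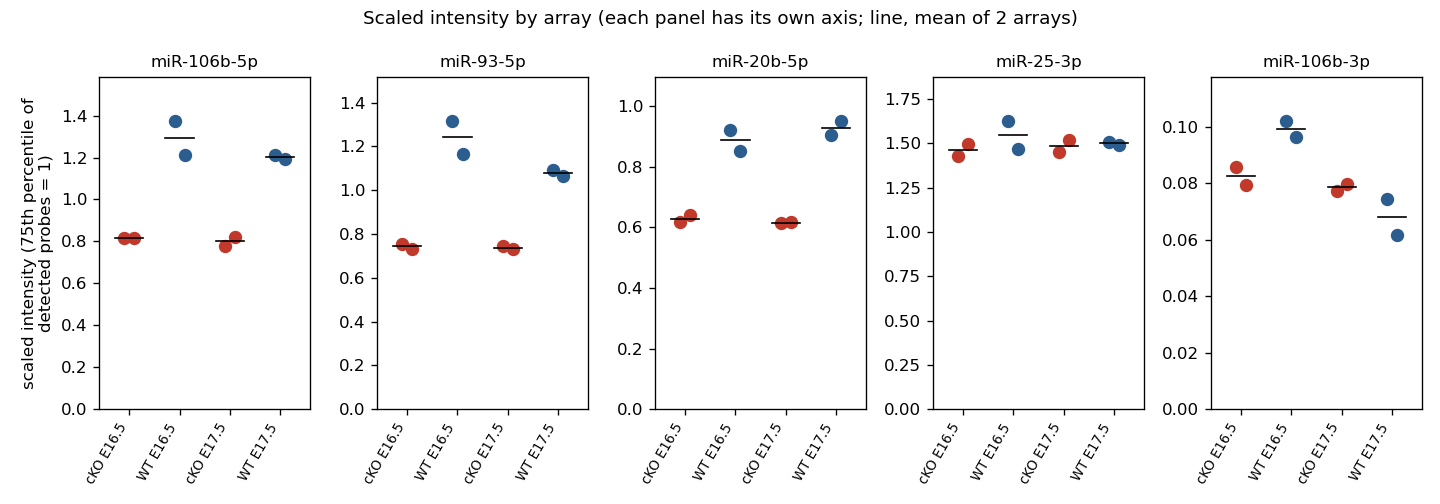
Scaled intensity (detected probes have their 75th percentile at 1) of each member on each array, with cKO in red and WT in blue, and a line at the mean of the 2 arrays of a group. The 4 cKO arrays of miR-106b-5p lie between 0.780 and 0.822 and the 4 WT arrays between 1.19 and 1.38, whereas the genotypes overlap for miR-25-3p. Each panel has its own axis, and panels cannot be compared in level.

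At E16.5 and at E17.5 taken singly, the same 3 members were called lower. At E16.5 this was 3 of 5 members, where 15.1% of all tested miRNAs were called lower and the median change was 0.19. miR-93-5p changed by −0.74 ± 0.0628 (limma adjusted p = 0.000808), miR-106b-5p by −0.66 ± 0.0652 (limma adjusted p = 0.00147) and miR-20b-5p by −0.50 ± 0.0492 (limma adjusted p = 0.00147). With the arrays scaled on all probes, or not scaled, these falls were larger but none was called at E16.5. In those settings the SE of miR-106b-5p was 0.206 and 0.215. The scaling factors at E16.5 were 288 on both cKO arrays and 398 and 284 on the WT arrays, so WT replicate 1 was the brightest of the 4. At E17.5 it was also 3 of 5 members, against 10.1% of all tested, with a median change of 0.13. miR-20b-5p changed by −0.59 ± 0.0492 (limma adjusted p = 0.000818), miR-106b-5p by −0.59 ± 0.0652 (limma adjusted p = 0.00187) and miR-93-5p by −0.55 ± 0.0628 (limma adjusted p = 0.00206). With scaling on all probes miR-93-5p was not called at E17.5 either (−0.88, limma adjusted p = 0.0546), while miR-106b-5p and miR-20b-5p were. The change of miR-25-3p was −0.08 ± 0.0582 at E16.5 and −0.02 ± 0.0582 at E17.5 (limma adjusted p = 0.29 and 0.907).

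Whether the knockout effect differed between stages was tested as the effect at E17.5 minus that at E16.5. Among all 385 miRNAs 1.56% were called in either direction, and 0 of 5 members were. By unadjusted p under 0.05, 1 of 5 members, miR-106b-3p, was past the threshold, against 27.8% of all tested. The difference was 0.19 ± 0.0888 for miR-93-5p (limma adjusted p = 0.23), 0.08 ± 0.0922 for miR-106b-5p (limma adjusted p = 0.584), 0.06 ± 0.0823 for miR-25-3p (limma adjusted p = 0.606) and −0.10 ± 0.0696 for miR-20b-5p (limma adjusted p = 0.396).

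Because miR-106b-5p, miR-93-5p and miR-25-3p are cut from 1 transcript, their difference was also taken within each array, where the scaling between arrays cancels. Relative to miR-25-3p, and set to a mean of 0 over the 4 WT arrays, miR-106b-5p was at −0.52 and −0.58 in cKO and at 0.05 and 0.01 in WT at E16.5. At E17.5 it was at −0.60 and −0.60 in cKO and at −0.03 and −0.03 in WT. miR-93-5p relative to miR-25-3p was at −0.52 and −0.63 in cKO and at 0.09 and 0.06 in WT at E16.5, and at −0.56 and −0.66 in cKO and at −0.07 and −0.09 in WT at E17.5. Every cKO array lay below every WT array in both differences. miR-106b-5p thus fell 1.49-fold relative to miR-25-3p and miR-93-5p 1.51-fold.

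By a two-sided exact permutation test over the 70 arrangements of 8 arrays, miR-106b-5p minus miR-25-3p differed by −0.58 between cKO and WT and miR-93-5p minus miR-25-3p by −0.59, each with p = 0.0286, the smallest this design can give. miR-25-3p minus miR-20b-5p differed by 0.50 with the same p in this exact test. Adjusted over the 6 pairs of members detected on all arrays, the 3 exact p-values became 0.0572, which misses 0.05. Permuted within stage, over 36 arrangements, each had p = 0.0556, again the smallest possible for the exact test. Adjusted over the 6 pairs, these exact p-values became 0.111. Among the members with the shared seed the differences were smaller and the genotypes overlapped. They were 0.02 for miR-106b-5p minus miR-93-5p (exact p = 0.571), −0.08 for miR-106b-5p minus miR-20b-5p (exact p = 0.257) and −0.10 for miR-93-5p minus miR-20b-5p (exact p = 0.371). In a limma fit of all 385 miRNAs with every array divided by its miR-25-3p value, a setting chosen after seeing the data, miR-106b-5p changed by −0.58 (limma adjusted p = 5.28e-06), miR-93-5p by −0.59 (limma adjusted p = 1.16e-05) and miR-20b-5p by −0.50 (limma adjusted p = 3.38e-05). These are the same within-array differences as in the exact test, so this fit is no separate support for them. After adjustment the exact test did not pass. A difference within an array shows unequal change, not that miR-25-3p itself did not change.

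**Figure D2:**
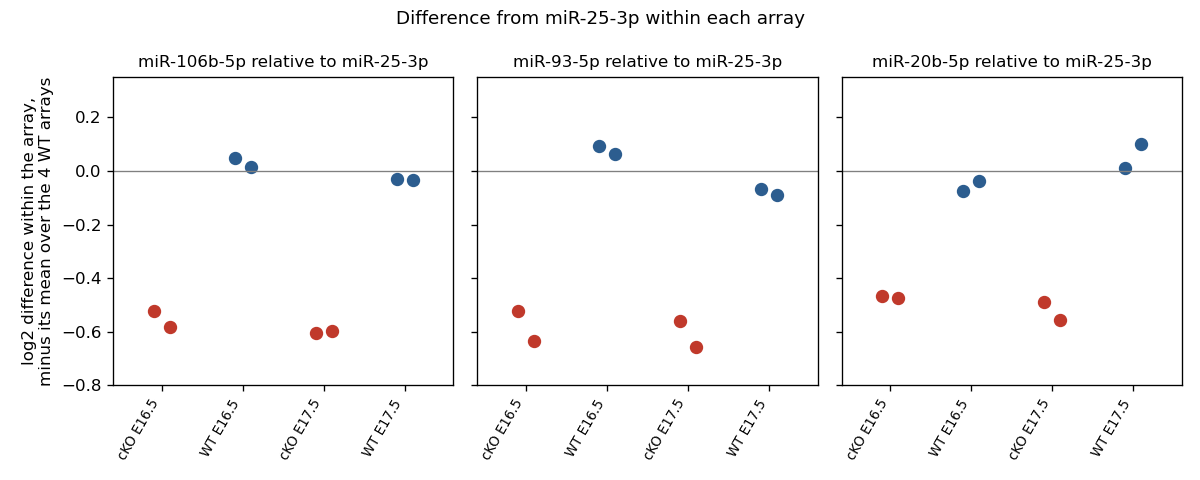
Log2 difference of miR-106b-5p, miR-93-5p and miR-20b-5p from miR-25-3p within each array, minus its mean over the 4 WT arrays, with cKO in red and WT in blue. In each panel all 4 cKO arrays lie below all 4 WT arrays, for miR-106b-5p at −0.52 to −0.60 against −0.03 to 0.05.

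miR-106b-3p, the arm opposite miR-106b-5p, was dim. It was read by 1 of its 4 probes, the one of 15 bases. The 3 shorter probes were detected on 0 arrays and lay at the floor on all 8. The intensity of the longest probe before scaling was 22.8 to 40.7, and on replicate 2 of cKO at E16.5 it was not detected. The scaled intensities were 0.0859 and 0.0793 in cKO and 0.102 and 0.0965 in WT at E16.5. At E17.5 they were 0.0772 and 0.0799 in cKO and 0.0743 and 0.0618 in WT. The cKO arrays were thus below the WT arrays at E16.5 and above them at E17.5, without overlap at either stage. With 2 arrays against 2 such separation often arises by chance, and its share among all tested miRNAs was not counted. Neither change passed the test, at −0.27 ± 0.0972 at E16.5 (limma adjusted p = 0.0687) and 0.21 ± 0.0972 at E17.5 (limma adjusted p = 0.144). Over both stages the change was −0.03 ± 0.0687 (limma adjusted p = 0.766), with a 95% confidence interval of −0.203 to 0.149. Calls of this miRNA turned on the processing and on single arrays. At E16.5 it was called lower with quantile scaling (−0.46, limma adjusted p = 0.00963), with median scaling (−0.28, limma adjusted p = 0.0477) and with control probes (−0.55, limma adjusted p = 0.00306), whereas with the normexp background correction it was at 0.027 (limma adjusted p = 0.818). Its change at E17.5 was below 0 with scaling on all probes, without scaling and with control probes, at −0.12, −0.18 and −0.29. Without replicate 1 or replicate 2 of WT at E17.5 the change of −0.27 at E16.5 was called (limma adjusted p = 0.0313 and 0.0314), and without replicate 1 of WT at E17.5 the change at E17.5 was called at 0.35 (limma adjusted p = 0.0271). The difference between the stages was 0.48 ± 0.137 (limma adjusted p = 0.106). The other arms of the remaining hairpins, miR-93-3p, miR-25-5p and miR-20b-3p, were detected on 0 arrays.

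The comparison of the stages asked whether the members changed as the footpad developed. Between E17.5 and E16.5 in WT, 10.6% of all tested miRNAs were called lower, and among the 5 members only miR-106b-3p was, by −0.55 ± 0.0972 (limma adjusted p = 0.0287). That call rests on values near the floor. Its intensity before scaling was 37.4 and 32.2 at E17.5 and 40.7 and 27.4 at E16.5 in WT, which overlap, and without scaling the change was 0.055 (limma adjusted p = 0.803). The call was lost when any of 7 of the 8 arrays was left out. In WT miR-93-5p changed by −0.20 (limma adjusted p = 0.0921), or by −0.29 without replicate 2 at E16.5 (limma adjusted p = 0.0359), miR-106b-5p by −0.10 (limma adjusted p = 0.343), miR-20b-5p by 0.07 (limma adjusted p = 0.404) and miR-25-3p by −0.04 (limma adjusted p = 0.692). In cKO 35.6% of all tested miRNAs were called between the stages in either direction, and 0 of 5 members were, with changes of −0.07 to 0.02. For miR-106b-5p, miR-93-5p and miR-20b-5p the order of levels was thus cKO at either stage below WT at either stage, and within a genotype no stage difference of these 3 passed the test under the main settings. In WT the stage difference of miR-20b-5p depended on the scaling, and it was called higher at E17.5 without scaling (0.67, limma adjusted p = 0.0413) and with control probes (0.31, limma adjusted p = 0.0328). That of miR-93-5p was called with another background correction, normexp (−0.17, limma adjusted p = 0.0442).

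The paralog clusters gave a further view of the same seeds. Of 20 miRNAs listed for the miR-17-92 and miR-106a-363 clusters, 19 were on the array by those names and 7 passed the detection filter. All 7 are encoded by the miR-17-92 cluster, and miR-19b-3p and miR-92a-3p each have a further copy on the X chromosome near Mir20b. Over both stages 5 of these 7 were called lower, 0 higher and 2 were not called, where 14.5% of all tested were called lower. Their median was −0.23 against 0.17 for all tested. miR-20a-5p had scaled intensities of 1.34 and 1.35 in cKO and 2.02 and 1.91 in WT at E16.5, and 1.31 and 1.34 in cKO and 1.97 and 1.98 in WT at E17.5. miR-17-5p had 0.211 and 0.209 in cKO and 0.311 and 0.293 in WT at E16.5, and 0.184 and 0.173 in cKO and 0.273 and 0.255 in WT at E17.5. Both were lower in every cKO array than in every WT array, with changes of −0.56 ± 0.0235 for miR-20a-5p (limma adjusted p = 5.17e-05) and −0.54 ± 0.0407 for miR-17-5p (limma adjusted p = 0.000336) over both stages. These 2 and the 3 members thus made 5 tested miRNAs with the shared seed, and their changes ranged from −0.64 to −0.54. As the miR-20b-5p probe has 1 mismatch among 20 bases to miR-20a-5p, the 5 may not be separate readings. Listed miRNAs particular to the miR-106a-363 cluster, such as miR-18b-5p and miR-363-3p, were detected on 0 arrays where present on the array.

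miR-92a-3p, which has the seed of miR-25-3p, had scaled intensities of 1.35 and 1.33 in cKO and 1.57 and 1.64 in WT at E16.5, and 1.16 and 1.17 in cKO and 1.37 and 1.32 in WT at E17.5. It fell by 0.23 ± 0.0216 on the log2 scale (limma adjusted p = 0.000663). Its genotypes did not overlap at either stage, in contrast to those of miR-25-3p, though the difference between the 2 miRNAs was not tested. At a single stage, separation of 2 arrays from 2 often arises by chance. The other listed miRNAs with this seed, miR-32-5p, miR-92b-3p, miR-367-3p and miR-363-3p, were detected on 0 arrays. The rest of the miR-17-92 cluster was spread between these values. miR-18a-5p, whose seed is 1 base from that of miR-106b-5p, changed by −0.48 ± 0.0345, miR-19a-3p by −0.19 ± 0.0415, miR-19b-3p by −0.07 ± 0.0315 and miR-17-3p by 0.05 ± 0.0276 (limma adjusted p = 0.000301, 0.0126, 0.117 and 0.198).

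**Figure D3:**
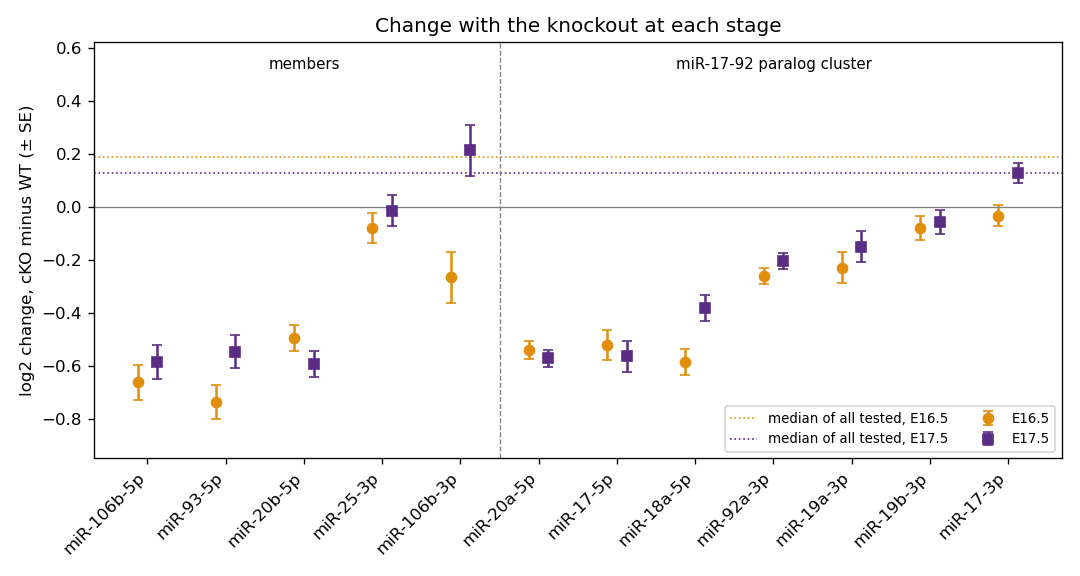
Log2 change, cKO minus WT, of the 5 members and of the 7 tested miRNAs of the paralog clusters at E16.5 (circles) and E17.5 (squares), with bars of 1 SE and dotted lines at the median of all 385 tested (0.19 and 0.13). miR-106b-5p, miR-93-5p, miR-20b-5p, miR-20a-5p and miR-17-5p lie between −0.74 and −0.50 at both stages, and miR-25-3p lies near 0.

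Other miRNAs were ordered by the root mean square difference, over the 8 arrays, between their centred log2 values and a mean profile. That profile was the mean of the centred values of the 4 members detected on all arrays. It mixes 3 members that fell with miR-25-3p, so it is not the profile of any single member. Among 257 other miRNAs the median of this measure was 0.381. The 5 nearest were miR-193b-3p at 0.0368, miR-103-3p at 0.0444, miR-107-3p at 0.0526, miR-20a-5p at 0.0567 and miR-18a-5p at 0.0606. miR-103-3p and miR-107-3p, which share a seed with each other, are known for a part in insulin sensitivity. miR-193b-3p had scaled intensities of 0.432 to 0.451 in cKO and 0.620 to 0.673 in WT, and changed by −0.52 ± 0.0285 (limma adjusted p = 0.000126). Of the members themselves miR-20b-5p was at 0.0676, miR-106b-5p at 0.0822, miR-93-5p at 0.103 and miR-25-3p at 0.210 from their mean profile. The 5 nearest miRNAs thus lay closer to this mean than any member did. miR-25-3p was the farthest of the 4, from a mean to which the other 3 contributed most.

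The size of the changes depended on the scaling between arrays. Under 6 scalings the change over both stages stayed called for miR-106b-5p, miR-93-5p and miR-20b-5p. The 3 lay below miR-25-3p and miR-106b-3p under each, but only quantile scaling could have changed that order. The others apply a single factor to a whole array and shift all members alike. The share of increases among all calls moved more, with 76% under the main scaling, 69.3% with quantile scaling, 67.2% with the median, 12% with all probes, 9.52% with none and 4.47% with control probes.

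**Figure D4:**
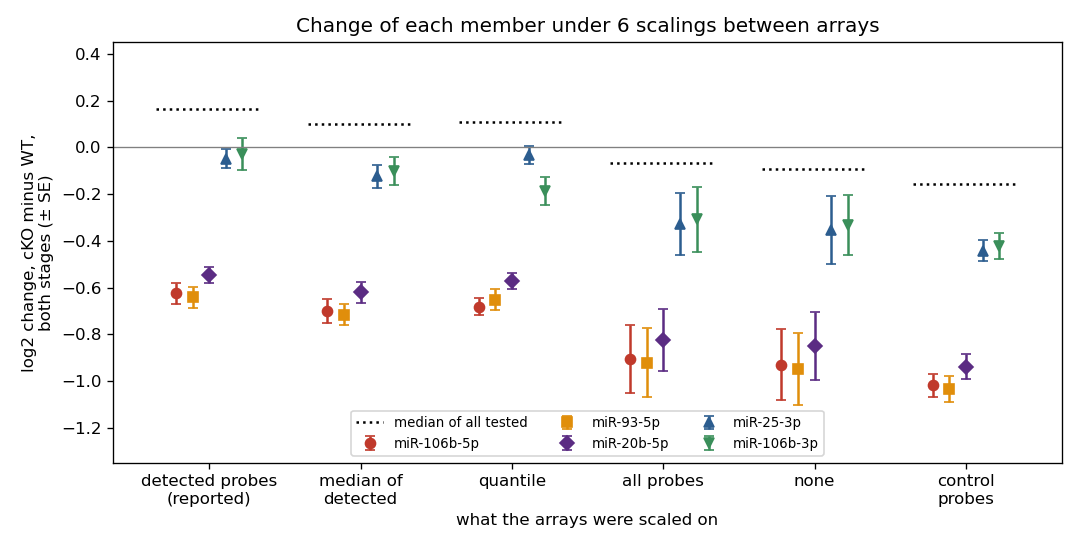
Log2 change, cKO minus WT over both stages, of each member under 6 scalings between arrays, with bars of 1 SE and a dotted line at the median of all 385 tested. miR-106b-5p, miR-93-5p and miR-20b-5p lie below the other members under each scaling, an order that only quantile scaling could have changed. miR-25-3p lies at −0.05 with the reported scaling and at −0.44 with control probes.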

How the data were processed

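The authors extracted the array images with Agilent Feature Extraction 11.5.1.1, per the file headers, which give the build mm9. The deposited scanner files hold background-subtracted intensity in linear units, not scaled between arrays, and the deposited value table equals it within 0.02 for spots above 0. Spots marked as outliers (2.84% to 6.02% per array) were left out, and 0 spots were saturated. Spots of a probe were averaged. A probe was detected when over 50% of its spots were well above background. Each array was scaled to put at 1 the 75th percentile of 474 probes detected on every array, values were raised to a floor of −4.24 (log2), and the brightest of a miRNA's probes was used. limma 3.58.1 (R 4.3.3) fitted 4 group means with a trend, with 4 residual and 1.08 prior degrees of freedom. Tested were the 385 of 1881 miRNAs detected on both arrays of a group. The fit was tested on simulated data. Replicate numbers of different groups go with the slide row, and the deviations of same-numbered arrays correlated at −0.19 to 0.33, so the arrays were not treated as paired. Named were the members, their other arms, listed paralogs and the 5 nearest profiles. The members, lists and rules were chosen with earlier results of these data known. Sequences were read from RefSeq (GRCm38.p6) and, for probes, from the scanner files. Figures were drawn with matplotlib 3.10.9 in Python 3.11.15. Packages were data.table (version 1.17.8) and jsonlite 2.0.0.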

Additional observations from a re-analysis of the deposited data

Results flagged for a closer look

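miR-106b-3p was singled out because its cKO arrays lay on opposite sides of its WT arrays at the 2 stages, by −0.27 at E16.5 and by 0.21 at E17.5, without overlap at either stage. Separation of 2 arrays from 2 often arises by chance. The difference between the stages was 0.48 ± 0.137 and did not pass the test (limma adjusted p = 0.106). The opposite directions were not seen with the normexp background correction, where the change at E16.5 was 0.027. Nor were they seen with scaling on all probes, without scaling or with control-probe scaling, where the change at E17.5 was −0.12, −0.18 and −0.29. The value rests on 1 probe with 7 spots and an intensity of 22.8 to 40.7 before scaling, and its spots differed among themselves by a coefficient of variation of 9.72% to 23.2% within an array, against 2.38% to 9.49% for miR-106b-5p. The part of this dimness in the pattern was not tested.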

How the results depend on the processing

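The changes of miR-106b-5p, miR-93-5p and miR-20b-5p over both stages were called lower under all 25 settings run, with ranges of −1.02 to −0.53, −1.04 to −0.54 and −0.94 to −0.44. The settings are not separate pieces of support. The deposited value table holds the same signal, and changes of the floor or the filter left the estimate of miR-106b-5p at −0.62. With the replicate number (slide row) as a block, miR-106b-5p changed by −0.62 (limma adjusted p = 0.00133), miR-93-5p by −0.64 and miR-20b-5p by −0.55, and the block changed no call of a member over both stages. As the arrays are not paired by design, these values describe only the shared row.

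Control-probe scaling called 5 members lower in each of the 3 comparisons of cKO with WT, with miR-25-3p at −0.44 and miR-106b-3p at −0.42 over both stages and miR-106b-3p at −0.29 at E17.5. It called 171 of all tested miRNAs lower over both stages, 99 for E16.5 and 201 for E17.5, against 56, 58 and 39 under the main scaling. Quantile scaling called miR-106b-3p lower over both stages (−0.19, limma adjusted p = 0.0432). At E16.5, scaling on all probes called 0 members and 18 of all tested lower, and no scaling called 0 members and 17. Testing all 1881 miRNAs without a filter and without the trend called 36 lower at E16.5. Among these were miR-106b-5p, miR-93-5p and miR-20b-5p. No filter with the trend could not be fitted. Without scaling miR-106b-3p changed by 0.055 between the stages in WT.

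With each member's other probe, chosen after seeing the data, 4 pairs passed (exact permutation, adjusted p = 0.0429), with −0.65 for miR-106b-5p minus miR-25-3p, −0.61 for miR-93-5p minus miR-25-3p, 0.46 for miR-25-3p minus miR-20b-5p and −0.18 for miR-106b-5p minus miR-20b-5p. Leaving out each array in turn gave −0.59 to −0.56, −0.62 to −0.56, 0.46 to 0.52 and −0.12 to −0.039 for these pairs, and without WT E17.5 replicate 2 all 4 passed (exact permutation, adjusted p = 0.0429), since more pairs then reached the smallest p. Leaving out each array called 0 to 1 members higher at E17.5, the 1 being miR-106b-3p without WT E17.5 replicate 1. The call of miR-106b-3p between stages in WT was lost in 7 of 8 such leave-outs. Among results for single members, 712 stayed on their side of the threshold, 18 lost a call and 16 gained one. A further 2 turned direction where the main or the altered setting made a call. Changes of sign without a call are counted among the 712, as are settings that could not move a member's value. For instance, the difference of the miR-106b-5p knockout effect between stages changed sign in 6 of 25 settings, none of them called. The cause of these differences was not tested. With 2 arrays per group, the number of arrays limits precision.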
